A study of Mus musculus with 20 samples.

Results

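The proteasome genes were taken by symbol from the gene counts of mouse kidney: every row whose symbol begins with Psm, then a letter from a to g, then a number. The rule found 50 of 24421 gene symbols. They comprise 8 alpha-ring genes of the 20S core (Psma), 8 constitutive beta-ring genes (Psmb), the 3 immunoproteasome genes Psmb8, Psmb9 and Psmb10, 6 ATPases and 11 other subunits of the 19S cap (Psmc, Psmd), 5 activator genes (Psme), the regulator Psmf1, and 7 assembly chaperones (Psmg1 to Psmg4, with Psmd5, Psmd9 and Psmd10). The remaining match, Psmc3ip, encodes a meiotic recombination factor that is named after an interaction with a 19S ATPase and is no proteasome subunit. Of the 50 genes, 48 had enough reads to be tested in each comparison. Psma8 and Psmb11 did not.

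Whole-tissue RNA-seq was available for 20 kidney libraries, 5 in each of 4 groups: Fh1-/- kidneys at day 10 and at day 5 after induction, and Fh1+/+ kidneys at day 10 and at day 5. Fh1 encodes fumarate hydratase, the enzyme that converts fumarate to malate in the tricarboxylic acid cycle. Fh1-/- mice carried homozygous Fh1 alleles with loxP-flanked internal exons, Fh1+/+ littermates carried wild-type Fh1, and both carried the R26 CreERT2 transgene, a tamoxifen-activated Cre recombinase under the ubiquitous Rosa26 promoter, so deletion was not limited to 1 cell type. All mice were of a mixed C57BL/6 and 129/SvJ background, age-matched between 10 and 12 weeks, and all received 3 intraperitoneal injections of 2 mg tamoxifen. The labels number the replicates but name no animals, so p-values refer to the spread among libraries, which may in part be technical. In whole tissue, fewer cells of a type and less RNA per cell cannot be told apart.

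The 20S proteasome is a barrel of stacked alpha and beta rings whose beta subunits carry the proteolytic sites. The 19S cap recognises ubiquitin chains, removes them, unfolds the substrate with its ATPases and feeds it into the barrel. Under interferon, the inducible subunits Psmb8, Psmb9 and Psmb10 are built into new cores in place of Psmb5, Psmb6 and Psmb7, and the PA28 activator, a ring of Psme1 and Psme2, is made with them. These immunoproteasomes trim peptides for display on MHC class I. When proteasome activity falls short, the transcription factor NRF1 (Nfe2l1), released from the endoplasmic reticulum by Ngly1 and the protease Ddi2, raises the subunit genes together through antioxidant response elements in their promoters.

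Upstream sequences of the 3 immunoproteasome genes and of 2 of their constitutive counterparts are shown because the results turn on how these sets varied between libraries. The sequences are from RefSeq on GRCm38.p6, the 250 bases before the annotated start, written 5′ to 3′ along the gene. Capitals mark a match to 1 of 3 motifs: TTCNNNGAA (GAS, the interferon-gamma-activated sequence), ISRE (2 copies of GAAA set 2 bases apart, bound by interferon regulatory factors) and TGACNNNGC (core of the antioxidant response element).
Psmb8, chr17:34197945-34198194, plus strand: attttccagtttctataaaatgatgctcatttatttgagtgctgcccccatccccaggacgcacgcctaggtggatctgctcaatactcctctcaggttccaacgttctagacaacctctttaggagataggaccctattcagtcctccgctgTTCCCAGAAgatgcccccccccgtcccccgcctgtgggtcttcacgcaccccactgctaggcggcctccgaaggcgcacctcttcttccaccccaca
Psmb9, chr17:34187331-34187580, minus strand: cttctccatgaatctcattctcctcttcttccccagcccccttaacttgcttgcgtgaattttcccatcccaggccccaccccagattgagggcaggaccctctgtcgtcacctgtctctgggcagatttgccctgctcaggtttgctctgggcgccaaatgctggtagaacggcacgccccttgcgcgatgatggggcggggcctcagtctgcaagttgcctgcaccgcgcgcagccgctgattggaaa
Psmb10, chr8:105938393-105938642, minus strand: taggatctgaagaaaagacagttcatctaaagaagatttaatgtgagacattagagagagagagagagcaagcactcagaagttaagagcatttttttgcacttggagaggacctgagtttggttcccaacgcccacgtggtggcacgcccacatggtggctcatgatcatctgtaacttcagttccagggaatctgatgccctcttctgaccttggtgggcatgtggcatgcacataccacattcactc
Psmb5, chr14:54617996-54618245, minus strand: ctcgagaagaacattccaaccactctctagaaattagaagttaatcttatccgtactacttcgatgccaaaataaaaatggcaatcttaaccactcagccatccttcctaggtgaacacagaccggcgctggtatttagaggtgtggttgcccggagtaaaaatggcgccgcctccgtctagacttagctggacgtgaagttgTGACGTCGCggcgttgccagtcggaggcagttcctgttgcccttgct
Psmb6, chr11:70525107-70525356, plus strand: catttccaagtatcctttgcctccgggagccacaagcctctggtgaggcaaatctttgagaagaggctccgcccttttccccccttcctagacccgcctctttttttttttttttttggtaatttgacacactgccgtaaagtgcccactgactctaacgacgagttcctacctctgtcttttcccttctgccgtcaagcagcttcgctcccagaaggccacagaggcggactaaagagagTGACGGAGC

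The GAS match of Psmb8 begins at base -97 and reads the same pattern on both strands. Psmb9 and Psmb10 held none of the 3 motifs in this window. Psmb5 and Psmb6 each held a core antioxidant response element, beginning at bases -47 and -9 from the start. RefSeq promoters were found for 42 of the 50 genes, and motifs were searched on both strands in windows of 300 bases, 250 before and 50 after the start. Overlaps between different motifs were allowed. The core antioxidant response element was in 6 of 42 member genes (14.3%: Psmb5, Psmb6, Psmc6, Psmd12, Psmd9 and Psme4) against 14.0% of all 27025 genes with a promoter. GAS was in 3 (7.14%: Psmb8, Psmd2 and Psmg1), against 9.55% of all genes. ISRE was in 5 (11.9%: Psmb3, Psmd4, Psmd9, Psme1 and Psmg4), against 3.99%. These are matches of letters and were not tested as binding sites.

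Total counts per library were between 16654829 and 25001294, with a median of 18547503, and proteasome genes took 0.364% to 0.498% of them. The highest shares, 0.496% and 0.498%, were in replicates 1 and 3 of the Fh1-/- day 10 group. These 2 libraries stood apart from the others across all genes: they lay at -125 and -128 on the first principal component, against -30.2 to 31.4 for the other 18, and Spp1, the injury-associated secreted protein osteopontin, took 10.3% and 9.50% of their counts, against at most 1.30% elsewhere. Log2 fold changes at day 10 are therefore also given without them where they differ. As the 2 libraries were picked from these same data, p-values without them are descriptive only. Counts of Fh1 itself did not follow the genotype labels: at day 10 they were 249 to 421 CPM (counts scaled to a common library size) in Fh1-/- libraries, against 224 to 258 CPM in Fh1+/+ libraries. At day 5 they were 199.7 to 239 CPM in Fh1-/- libraries, against 219 to 265 CPM in Fh1+/+ libraries (log2 fold change -0.18 ± 0.08, edgeR, adjusted p = 1.000). A whole-gene count includes the exons outside the deleted part and does not check the genotype, which was taken from the labels. Levels below are CPM after TMM normalisation over all 20 libraries.

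In Fh1+/+ kidneys the core and cap genes were the most abundant members per kb of annotated exon, with the exons of all isoforms joined. Over the 10 Fh1+/+ libraries, Psmb4, a structural beta subunit, averaged 94.1 ± 12.1 CPM per kb of exon (SD), and Psma6, an alpha subunit, 93.4 ± 9.4 CPM per kb. The ATPases Psmc5 and Psmc3 followed at 77.2 ± 8.2 and 73.4 ± 4.3 CPM per kb. Among the constitutive catalytic subunits, Psmb6 (caspase-like activity) stood at 74.8 ± 9.4, Psmb5 (chymotrypsin-like) at 62.9 ± 12.4 and Psmb7 (trypsin-like) at 31.2 ± 4.2 CPM per kb. By CPM alone, Psmb7 (mean 107) lay above Psmb5 (mean 56.5), so the order depends on the annotated lengths, 3421 and 899 bases. The immunoproteasome genes were lower: Psmb10 at 11.8 ± 2.3, Psmb8 at 5.4 ± 1.0 and Psmb9 at 2.2 ± 0.5 CPM per kb. Adjacent members in this order overlapped in their ranges over libraries except at 4 steps near the bottom, below Psmg3, Psma3, Psme2b and Psma8.

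**Figure D1:**
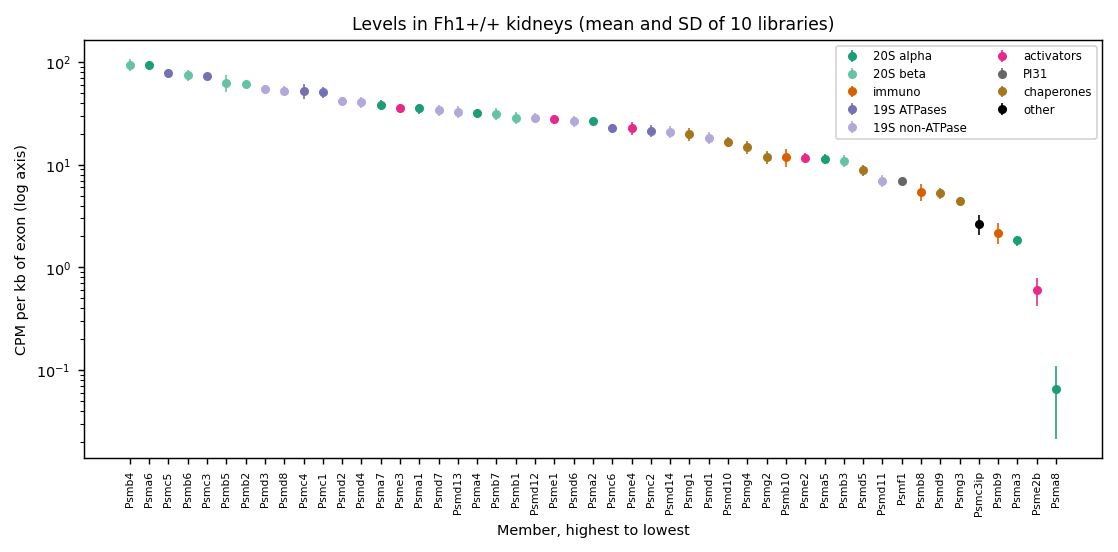
Level of each member in Fh1+/+ kidneys, as CPM per kb of annotated exon on a log axis, with the mean and SD of 10 libraries, coloured by subcomplex. Constitutive core and cap genes fill the upper part, Psmb10, Psmb8 and Psmb9 lie at 11.8, 5.4 and 2.2 CPM per kb, and Psmb11, with 2 reads in all, is not drawn.

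At the bottom of the order were tissue-restricted and duplicated genes. Psma8, the alpha subunit of the spermatoproteasome, had 78 reads in all 20 libraries together. Psmb11, the catalytic subunit of the thymus cortex, had 2 reads among 379789971, and in each of the Fh1-/- day 10 and Fh1+/+ day 5 groups it had 0 reads, which allows up to 0.0318 and 0.0322 CPM (3 counts over the group's total, counting error only). Psme2b, a copy of Psme2, had 233 reads. Psma3 stood at 1.8 ± 0.2 CPM per kb, far below the other alpha genes apart from Psma8. The authors dropped reads with low mapping quality, which reads shared between near-identical loci have, and the part of this in the level of Psma3, Psma5 or Psmb3 was not tested. GRCm38 annotation holds named pseudogenes of Psmb5, Psmb6 and Psmb7, so counts of these 3 genes are uncertain to that extent.

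Did loss of Fh1 change the proteasome genes at day 10? No member passed the threshold of an adjusted p under 0.01 (edgeR quasi-likelihood test, Benjamini-Hochberg over 14360 genes) and an absolute log2 fold change over 0.58, which 8 genes in all passed (0.0557% of those tested). The lowest adjusted p was 0.0908, for Psmd5. At an unadjusted p under 0.05 there were 7 members higher and 1 lower in Fh1-/- kidneys, 14.6% and 2.08% of the 48, against 15.1% and 11.9% of all genes tested. DESeq2 called 5.54% of all genes and 0 members, of which 9 were higher and 1 lower below that unadjusted limit. The point estimates nonetheless lay mostly on 1 side: 42 of 48 members were above 0, with a median log2 fold change of 0.29, against 49.9% of all genes and a median of 0.00. With library totals alone in place of TMM, the median of all genes was -0.17 and that of the members 0.10, with 31 above 0.

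By subcomplex, the estimates at day 10 were above 0 for 7 of 7 alpha genes (median 0.30), 7 of 7 constitutive beta genes (0.28), 6 of 6 cap ATPases (0.18) and 11 of 11 other cap subunits (0.33). The 3 immunoproteasome genes had a median of 0.96, and the 5 activator genes one of 0.50. The assembly chaperones were centred on 0, with 3 of 7 above it and a median of 0.00. Without replicates 1 and 3 of the Fh1-/- group, which stood apart, the medians were -0.08 for the alpha genes (2 of 7 above 0), -0.06 for the constitutive beta genes (1 of 7), 0.07 for the ATPases (4 of 6), 0.03 for the other cap subunits (7 of 11), -0.83 for the immunoproteasome (0 of 3), -0.03 for the activators (2 of 5) and -0.09 for the chaperones (2 of 7). In no member did the 5 Fh1-/- and the 5 Fh1+/+ libraries separate without overlap, in either direction, whereas 4.42% of all genes were higher and 3.43% lower without overlap.

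Values by library show where this spread lay. In the 48 members tested, replicates 1 and 3 of the Fh1-/- day 10 group both exceeded every one of the other 18 libraries in 34 genes (70.8%), against 23.1% of all genes tested, and in 0 members were both below them, against 22.6% of all genes. The 34 included 7 of 7 alpha genes, 6 of 7 constitutive beta genes, all 3 immunoproteasome genes, 9 of 11 non-ATPase cap subunits, 3 of 6 ATPases and 2 of 7 chaperones. Without these 2 libraries the median log2 fold change of the members was -0.07, with 19 of 48 above 0, against a median of -0.01 for all genes, and edgeR then called 0 members and 0.0135% of all genes.

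**Figure D2:**
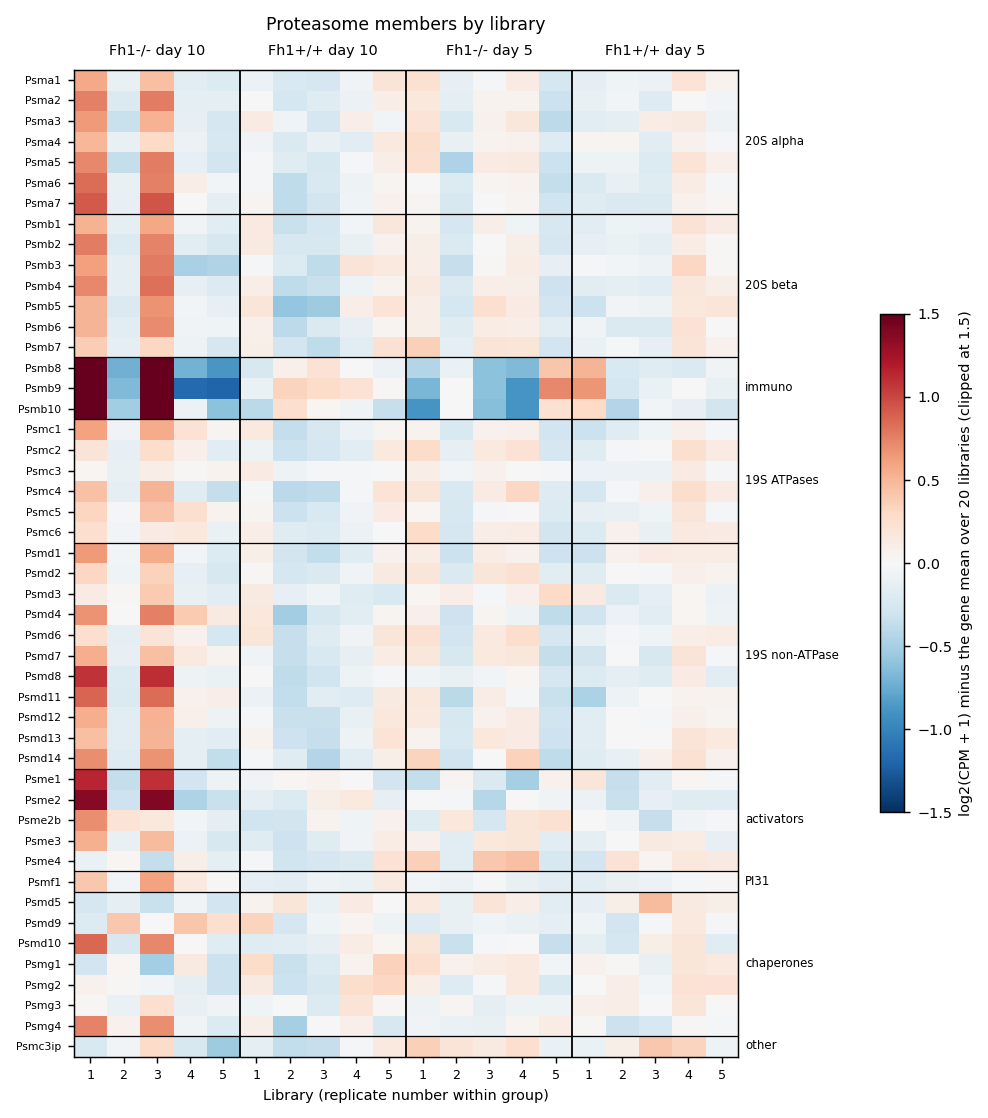
Level of the 48 tested members in each library, as log2(CPM + 1) minus the mean of the gene over 20 libraries, with the 4 groups separated by vertical lines and the subcomplexes by horizontal lines. Fh1-/- day 10 replicates 1 and 3 are the highest libraries in 34 genes, and chaperones such as Psmd5 and Psmd9 do not follow. Colours are clipped at 1.5.

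Psmb10, the inducible trypsin-like subunit, had the largest estimate of all members. It stood at 97.7, 14.7, 117, 20.1 and 13.7 CPM in the 5 Fh1-/- day 10 libraries, against 15.98, 25.7, 21.9, 20.6 and 16.7 CPM in the Fh1+/+ day 10 libraries. Replicates 1 and 3 were far above every other library, and the other 3 Fh1-/- libraries lay within or just below the Fh1+/+ range. The log2 fold change was 1.37 ± 0.61 (SE; edgeR, adjusted p = 0.179), and without those 2 libraries it was -0.33 ± 0.19 (adjusted p = 0.386).

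Psmb8, the inducible chymotrypsin-like subunit, had 72.0, 10.7, 77.0, 10.8 and 9.58 CPM in Fh1-/- day 10 libraries, against 15.4, 19.4, 21.4, 18.5 and 17.3 CPM in Fh1+/+ day 10 libraries. The Fh1-/- libraries thus lay on both sides of the Fh1+/+ group, with none inside its range: 2 above it and 3 below. The log2 fold change was 0.96 ± 0.61 (edgeR, adjusted p = 0.320). Without replicates 1 and 3 it was -0.83 ± 0.13 (adjusted p = 0.0410), and DESeq2 on the same 8 libraries gave -0.84 (adjusted p = 7.76e-06). The 2 libraries left out were picked from these data and held the 2 highest Psmb8 values, so neither p is a test of a decrease.

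Psmb9, the inducible subunit that takes the place of Psmb6 and a neighbour of Tap1, showed the same arrangement. Its level was 27.3, 4.22, 28.1, 2.69 and 2.61 CPM in Fh1-/- day 10 libraries, against 6.71, 9.48, 9.06, 8.67 and 7.37 CPM in Fh1+/+ day 10 libraries. The log2 fold change was 0.64 ± 0.67 (edgeR, adjusted p = 0.549), and without replicates 1 and 3 it was -1.38 ± 0.22 (adjusted p = 0.0413), or -1.40 by DESeq2 (adjusted p = 1.18e-06). Psmb8 and Psmb9 were the only members that DESeq2 called in this reduced set, a combination chosen after the data were seen, in which it called 2.76% of all genes. Replicates 2, 4 and 5 were all below every Fh1+/+ day 10 library for Psmb8, Psmb9 and Psme2, 3 of 48 members (6.25%), against 5.56% of all genes tested, and all above them for 0 members, against 7.28%.

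**Figure D3:**
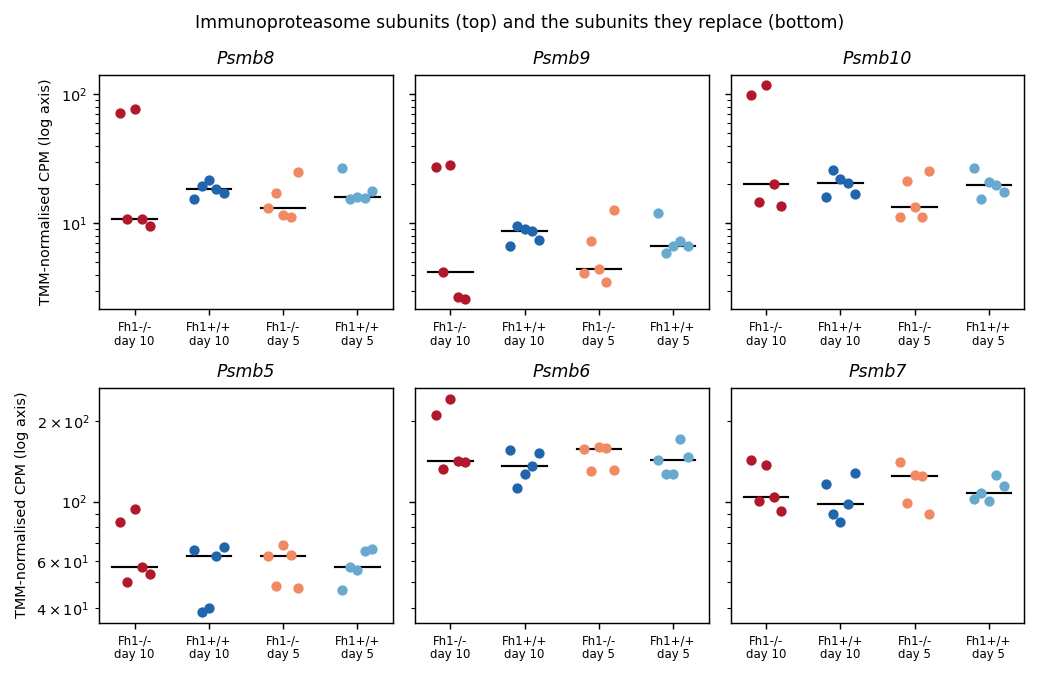
CPM in each library, on a log axis, of the 3 immunoproteasome subunits (top) and the constitutive subunits they replace (bottom), by group, with a line at the median of 5 libraries. In the top row 2 Fh1-/- day 10 libraries lie far above the rest and the other 3 lie low, whereas the bottom row spans a much narrower range.

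The constitutive counterparts were less spread. Psmb5 had 83.7, 50.01, 93.6, 56.8 and 53.5 CPM in Fh1-/- day 10 libraries, against 66.03, 38.7, 40.0, 62.3 and 67.6 CPM in Fh1+/+ day 10 libraries, and its log2 fold change was 0.28 ± 0.23 (edgeR, adjusted p = 0.439). Psmb6 and Psmb7 had log2 fold changes of 0.33 ± 0.19 (adjusted p = 0.279) and 0.14 ± 0.17 (adjusted p = 0.596). Without replicates 1 and 3 the estimates were -0.04 for Psmb5, 0.02 for Psmb6 and -0.06 for Psmb7. As a ratio of CPM per kb of exon, Psmb10 over Psmb7 was 1.38, 0.294, 1.72, 0.387 and 0.298 in Fh1-/- day 10 libraries, against 0.276, 0.572, 0.523, 0.423 and 0.261 in Fh1+/+ day 10 libraries. Per length, the inducible subunit thus lay above its counterpart in replicates 1 and 3 and below it in the other 8 libraries of day 10. Without division by length, the ratio of CPM was 0.686 and 0.857 in replicates 1 and 3, against 0.130 to 0.285 in Fh1+/+ day 10 libraries. Psmb10 was then below Psmb7 in every library of day 10. Which gene lay higher thus depended on the annotated exon lengths, 1705 bases for Psmb10 and 3421 for Psmb7. Per kb, Psmb8 over Psmb5 was 0.229 and 0.219 in replicates 1 and 3 and 0.0476 to 0.0571 in the other 3 Fh1-/- libraries, against 0.0621 to 0.142 in Fh1+/+ libraries, so Psmb8 stayed below Psmb5 in each.

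Both PA28 genes followed the immunoproteasome pattern. Psme1 had 142, 49.2, 137, 51.8 and 60.0 CPM in Fh1-/- day 10 libraries, against 60.9, 64.7, 65.7, 63.8 and 52.1 CPM in Fh1+/+ day 10 libraries. Psme2 had 59.3, 17.8, 60.2, 15.98 and 17.6 CPM in Fh1-/- libraries, against 20.1, 19.2, 23.8, 24.8 and 20.4 CPM in Fh1+/+ libraries. Replicates 1 and 3 were again above all Fh1+/+ libraries, and for Psme2 the other 3 Fh1-/- libraries were below all of them. The log2 fold changes were 0.50 ± 0.31 for Psme1 and 0.64 ± 0.40 for Psme2 (edgeR, adjusted p = 0.309 for each), against -0.20 and -0.34 without replicates 1 and 3. Of the nuclear activators, Psme3 (PA28 gamma) was at 158 and 151 CPM in replicates 1 and 3, also above the other 18 libraries (at most 123 CPM). Its log2 fold change was 0.25 ± 0.17, or -0.03 without these libraries. Psme4 (PA200) differed, at 179 and 149.5 CPM in replicates 1 and 3, against 155 to 262 CPM in the other 18. Its log2 fold change was 0.00 ± 0.13, or 0.09 without them. Psme2b had the third largest estimate of all members, 0.74 ± 0.41 (0.30 without replicates 1 and 3), on 72 reads in 5 Fh1-/- libraries against 47 reads in 5 Fh1+/+ libraries.

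Among the alpha subunits, which form the gated outer rings, the lowest unadjusted p-values were those of Psma6 and Psma7. Psma6 had 223, 115, 210.4, 133 and 120.4 CPM in Fh1-/- day 10 libraries, against 122, 94.95, 105, 118 and 127 CPM in Fh1+/+ day 10 libraries. Replicates 1 and 3 were the only ones beyond the Fh1+/+ range apart from replicate 4, at 133 CPM. The log2 fold change was 0.48 ± 0.21 for Psma6 (edgeR, adjusted p = 0.1699) and 0.51 ± 0.25 for Psma7 (adjusted p = 0.210), and without these 2 libraries 0.11 and 0.02. In the beta ring, Psmb4 had the largest estimate of the constitutive subunits, 0.39 ± 0.24 (adjusted p = 0.295), or -0.04 without them. Psmb1 and Psmb3, both non-catalytic, had log2 fold changes of 0.22 ± 0.19 and 0.19 ± 0.27, or -0.07 and -0.33 without them.

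In the 19S cap, Psmd4, the ubiquitin receptor Rpn10, had the lowest p of any member that was higher. Its level was 199, 124, 210.1, 163 and 136 CPM in Fh1-/- day 10 libraries, against 138, 86.3, 105, 111 and 127 CPM in Fh1+/+ day 10 libraries. Here replicate 4 also lay above the Fh1+/+ range. The log2 fold change was 0.54 ± 0.18 (edgeR, adjusted p = 0.106), and 0.31 ± 0.16 without replicates 1 and 3 (adjusted p = 0.313). Psmd11, a lid subunit, was at 88.0, 41.0, 85.9, 50.1 and 51.1 CPM in Fh1-/- libraries, against 45.0, 36.7, 42.4, 41.6 and 52.5 CPM in Fh1+/+ libraries, a log2 fold change of 0.52 ± 0.22 (adjusted p = 0.166), or 0.12 without the 2 libraries.

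Psmd8, a lid subunit singled out after its values were seen, showed the contrast most plainly among the cap genes, at 375 and 379.6 CPM in replicates 1 and 3 and 153 to 167 CPM in the other 3 Fh1-/- day 10 libraries, against 135 to 176 CPM in Fh1+/+ libraries. The ATPases of the base, which unfold substrates, varied less. Psmc1 had a log2 fold change of 0.37 ± 0.16 (edgeR, adjusted p = 0.171) and Psmc5 one of 0.27 ± 0.13 (adjusted p = 0.192), or 0.16 and 0.17 without replicates 1 and 3. Psmc3 was nearly level, at 196 ± 10.5 CPM in Fh1-/- and 193 ± 10.4 CPM in Fh1+/+ day 10 libraries (SD, n = 5 each), with a log2 fold change of 0.01 ± 0.09. The scaffold subunits Psmd1 and Psmd3 had log2 fold changes of 0.33 ± 0.19 and 0.14 ± 0.14, or 0.03 and 0.00 without the 2 libraries. Psmf1, the regulator PI31, had one of 0.30 ± 0.14 (adjusted p = 0.187), or 0.11 without them.

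Most assembly chaperones did not share this pattern. In 2 of 7, Psmd10 and Psmg4, Fh1-/- day 10 replicates 1 and 3 both exceeded the other 18 libraries. Psmd10 was at 46.95 and 42.5 CPM in these replicates, against at most 28.8 CPM in the other 18. Psmd5, which helps to build the 19S base, had 49.8, 53.8, 47.1, 57.4 and 48.7 CPM in Fh1-/- day 10 libraries, against 61.9, 67.8, 55.5, 65.0 and 59.6 CPM in Fh1+/+ day 10 libraries. Only Fh1-/- replicate 4, at 57.4 CPM, reached into the Fh1+/+ range. This was the lowest p of all members, with a log2 fold change of -0.29 ± 0.09 (edgeR, adjusted p = 0.0908), and its estimate was nearly the same without replicates 1 and 3, at -0.22 ± 0.09 (adjusted p = 0.247). Psmg4, which acts with Psmg3 on alpha-ring assembly, was estimated at 0.43 ± 0.24 on the log2 scale (adjusted p = 0.261), or 0.05 without these libraries. Psmg3 had 0.00 ± 0.13 and Psmg2, partner of Psmg1, -0.15 ± 0.16, or -0.09 and -0.20 without them.

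Psmd9, another base chaperone, also singled out after its values were seen, ran against the others. It stood at 33.5 and 38.5 CPM in replicates 1 and 3 and at 46.0 to 52.1 CPM in the other 3 Fh1-/- day 10 libraries, against 32.5 to 49.2 CPM in Fh1+/+ day 10 libraries and 33.6 to 37.1 CPM in Fh1-/- day 5 libraries. Between the days in Fh1-/- kidneys, its log2 fold change was 0.30 ± 0.12 (edgeR, adjusted p = 0.128) and, without replicates 1 and 3, 0.47 ± 0.07 (adjusted p = 0.0160). Of its exonic length, 25.5% overlaps Gm26745 on the opposite strand, and whether reads were counted by strand is not stated.

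**Figure D4:**
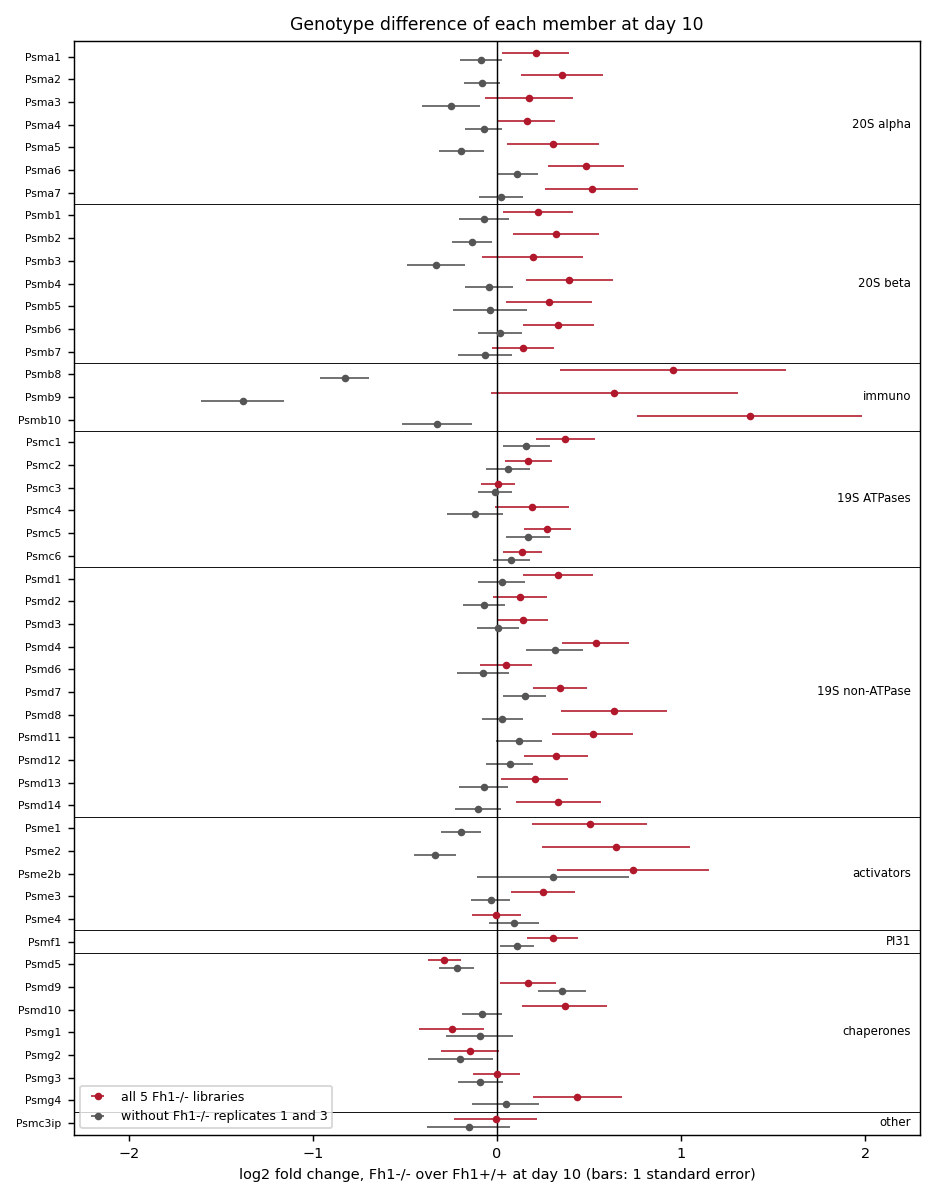
Log2 fold change of each tested member, Fh1-/- over Fh1+/+ at day 10, with 1 standard error, from all 5 Fh1-/- libraries (red) and without replicates 1 and 3 (grey). Psmb8, Psmb9 and Psmb10 lie at 0.96, 0.64 and 1.37 in red and at -0.83, -1.38 and -0.33 in grey, most core and cap genes lie near 0 in grey, and Psmd5 is below 0 in both.

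At day 5 the proteasome genes showed little. Of 14404 genes tested, 5 passed the threshold (0.0347%), and 0 of 48 members did. No member had an unadjusted p under 0.05 with edgeR or with DESeq2 (which called 0.215% of all genes and 0 members), against 2.42% of all genes higher and 2.37% lower. In 0 members did the groups not overlap, against 0.521% of all genes higher and 0.389% lower. Log2 fold changes of members were between -0.28 and 0.35, with a median of -0.01 (all genes, -0.01), and their standard errors had a median of 0.11. Psmb10 had 11.2, 21.3, 13.5, 11.1 and 25.5 CPM in Fh1-/- day 5 libraries, against 26.8, 15.5, 20.8, 19.7 and 17.5 CPM in Fh1+/+ day 5 libraries, and the groups overlapped. Its log2 fold change, -0.28 ± 0.25 (edgeR, adjusted p = 1.000), was the lowest of all members, while Psme2b had the highest, 0.35 ± 0.35. Psmb8 and Psmb9 had estimates of -0.23 ± 0.24 and -0.27 ± 0.35.

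Within the core at day 5, the alpha genes lay between -0.03 and 0.04 and the constitutive beta genes between -0.10 and 0.07. Psma2 and Psma4 had 0.04 ± 0.09 and 0.02 ± 0.09, and Psmb1 and Psmb3 had -0.09 ± 0.10 and -0.10 ± 0.11. In the cap, Psmd3 had 0.14 ± 0.09, Psmd1 -0.09 ± 0.12, Psmc5 -0.07 ± 0.08 and Psmc3 0.04 ± 0.06. The chaperones Psmg2 and Psmg3 had -0.15 ± 0.10 and -0.15 ± 0.08. In each of these genes the 2 groups overlapped.

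Between days within Fh1-/- kidneys, 82 of 14235 genes passed the threshold (0.576%) and 0 of 48 members did. At an unadjusted p under 0.05, 5 members were higher at day 10 and 2 lower (10.4% and 4.17%), against 17.9% and 14.4% of all genes, and DESeq2 gave 6 and 2, with 0 members and 9.0% of all genes called. In 0 members did the days not overlap, against 6.83% of all genes higher and 5.68% lower. Psmb10 had a log2 fold change of 1.66 ± 0.64 (edgeR, adjusted p = 0.106) and Psmd4 one of 0.52 ± 0.17 (adjusted p = 0.0682), and without replicates 1 and 3 they were -0.06 and 0.28. Within Fh1+/+ kidneys, 0 of 14501 genes passed the threshold (0.0%), with edgeR or DESeq2. There 0 members had an unadjusted p under 0.05 with either, against 1.99% of all genes higher and 1.98% lower, and 0 members had days without overlap, against 0.262% and 0.352%. The members' log2 fold changes there were between -0.34, for Psmc3ip, and 0.14, for Psme2, with a median of -0.05. The day 10 genotype comparison and this day comparison in Fh1-/- kidneys share the Fh1-/- day 10 libraries, so their values are not independent.

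The genotype difference at day 10 minus that at day 5 was tested with an interaction term over all 20 libraries. Here 5 of 14934 genes passed (0.0335%), 0 of them members, and 3 members had an unadjusted p under 0.05: Psmb10 at 1.65 ± 0.69 (edgeR, adjusted p = 0.196), Psmd4 at 0.53 ± 0.22 (adjusted p = 0.188) and Psmc5 at 0.33 ± 0.15 (adjusted p = 0.234), 6.25% of members against 11.8% of all genes in that direction. None had one below 0, against 8.4% of all genes. DESeq2 had 5 such members and called 0 of them, and 1.82% of all genes. Without Fh1-/- day 10 replicates 1 and 3 the estimates were -0.04 for Psmb10, 0.32 for Psmd4 and 0.23 for Psmc5, and none of them had an unadjusted p under 0.05. In that set 1 member was higher below that limit, Psmd9 at 0.44 ± 0.15 (edgeR, adjusted p = 0.183), and 2 were lower, Psme2 at -0.43 ± 0.15 (adjusted p = 0.188) and Psmb9 at -1.12 ± 0.48 (adjusted p = 0.297). A change of the genotype difference between the days was therefore not shown for any member.

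Genes that work with the proteasome were read in the same libraries from lists chosen with earlier results known. None of the 19 partners tested passed the threshold at day 10 (17 above 0, median 0.20), and without replicates 1 and 3 of the Fh1-/- group 11 were above 0, with a median of 0.05. Pomp, the chaperone that matures the core, had a log2 fold change of 0.17 ± 0.23 (edgeR, adjusted p = 0.636), or -0.25 without them. Ufd1l, a cofactor of the unfoldase p97, had the lowest p, at 0.44 ± 0.15 (adjusted p = 0.107), or 0.23 without them. Of the NRF1 route, Ddi2 was at 62.2, 55.5, 60.1, 75.2 and 58.1 CPM in Fh1-/- day 10 libraries, against 51.7, 36.5, 51.8, 45.4 and 37.1 CPM in Fh1+/+ day 10 libraries, without overlap, and replicates 1 and 3 were not its highest libraries. Its log2 fold change was 0.47 ± 0.13 (adjusted p = 0.0743), and 0.50 ± 0.15 without them (adjusted p = 0.145). Nfe2l1 and Ngly1 had 0.03 ± 0.13 and 0.02 ± 0.13. The polyubiquitin gene Ubb had 0.68 ± 0.21 (adjusted p = 0.0854), or 0.37 without the 2 libraries. Of the ubiquitin and E1 genes 4 of 5 were above 0, and 2 of 5 without these libraries.

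Class I antigen processing genes followed the immunoproteasome from library to library. Tap1, the peptide transporter subunit encoded head to head with Psmb9 (5.79% of the exonic length of Psmb9 overlaps it on the opposite strand), had 105, 12.1, 124, 14.6 and 11.9 CPM in Fh1-/- day 10 libraries, against 19.1, 23.0, 19.8, 18.2 and 15.7 CPM in Fh1+/+ day 10 libraries. As for Psmb8 and Psmb9, 2 Fh1-/- libraries lay above the Fh1+/+ group and 3 below it. The log2 fold change of Tap1 was 1.47 ± 0.68 (edgeR, adjusted p = 0.192), and -0.58 ± 0.14 without replicates 1 and 3 (adjusted p = 0.102). Irf1, an interferon-induced activator of these genes, had 0.90 ± 0.38 (adjusted p = 0.160), or 0.15 without them: it stood at 61.3 and 67.6 CPM in replicates 1 and 3 and at 16.9 to 31.8 CPM in the other 3 Fh1-/- libraries, against 16.1 to 30.5 CPM in Fh1+/+ day 10 libraries. Summed over the 10 genes of the list, the level was 3632 and 3714 CPM in replicates 1 and 3, against 485 to 1535 CPM in the other 18 libraries.

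**Figure D5:**
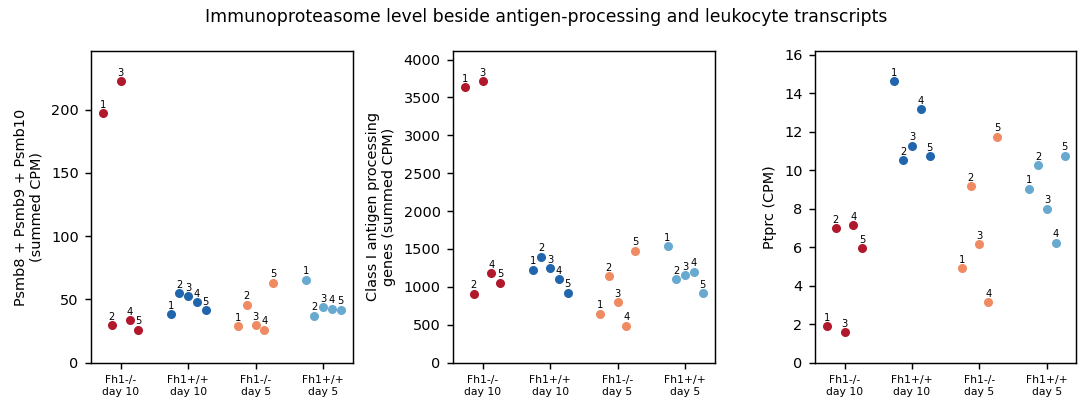
Summed CPM of Psmb8, Psmb9 and Psmb10 (left), summed CPM of 10 class I antigen processing genes (middle) and CPM of the pan-leukocyte gene Ptprc (right) in each library, numbered by replicate, by group. Fh1-/- day 10 replicates 1 and 3 are highest in the first 2 panels and lowest in the third, at 1.90 and 1.56 CPM of Ptprc. Not all leukocyte markers went with Ptprc: Cd74 and H2-Ab1, not drawn, were highest in these 2 libraries.

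Leukocytes express immunoproteasome genes constitutively, so their markers were read beside these values. Ptprc, the pan-leukocyte gene CD45, was at 1.90, 6.98, 1.56, 7.12 and 5.94 CPM in Fh1-/- day 10 libraries, against 14.6, 10.5, 11.3, 13.2 and 10.7 CPM in Fh1+/+ day 10 libraries, and was thus lowest in the 2 libraries with the highest immunoproteasome levels. Of the 12 leukocyte markers tested, 5 (Ptprc, Laptm5, Cd53, Adgre1 and Csf1r) were below all other 18 libraries in both, and 2 (Cd74 and H2-Ab1, which carry most of the list's reads) were above them. The summed level of the list was 986 and 1103 CPM in Fh1-/- day 10 replicates 1 and 3. It was 565 to 673 CPM in replicates 2, 4 and 5, against 751 to 954 CPM in Fh1+/+ day 10 libraries. In Fh1-/- day 10 replicates 2, 4 and 5, 7 of the 12 markers were below every Fh1+/+ day 10 library, among them Ptprc, Cd52 and Adgre1, as were Psmb8 and Psmb9. Cd52 had a log2 fold change of -1.21 ± 0.24 (edgeR, adjusted p = 0.0376), or -1.002 without replicates 1 and 3. The part of leukocyte content in these low values was not tested.

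Kidney epithelial markers were lowest in the same 2 libraries, at a summed 10069 and 10480 CPM, against 16191 to 24917 CPM in the other 18. Of the 9 markers, 5 were below every other library in both. All 20 libraries expressed the list. Fat cell markers summed to 58.7 and 56.4 CPM in replicates 1 and 3, inside the range of 27.5 to 309.6 CPM of the others, and adrenal markers summed to 4.60 and 3.34 CPM, inside 2.48 to 7.22 CPM. The part of tissue composition in the members' levels was not tested.

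Levels of the immunoproteasome genes were also split by Y-linked reads in each group except Fh1-/- day 10. Ddx3y, Eif2s3y, Kdm5d and Uty together were below 2 CPM in 8 libraries (3 of Fh1-/- day 10, 2 of Fh1-/- day 5, 2 of Fh1+/+ day 10 and 1 of Fh1+/+ day 5) and above 90 CPM in 12. In Fh1-/- day 5 libraries Psmb10 was at 21.3 and 25.5 CPM where these reads were low and at 11.1 to 13.5 CPM where they were high. In Fh1+/+ day 10 libraries it was at 21.9 and 25.7 CPM against 15.98 to 20.6 CPM, and in Fh1+/+ day 5 libraries at 26.8 CPM against 15.5 to 20.8 CPM. Psmb8, Psmb9 and Psme1 were split the same way in these 3 groups. Psmb5, the counterpart of Psmb8, was split the opposite way in them. It was at 47.5 and 48.5 CPM where Y-linked reads were low and at 62.4 to 69.0 CPM where they were high in Fh1-/- day 5 libraries, at 38.7 and 40.0 CPM against 62.3 to 67.6 CPM in Fh1+/+ day 10 libraries, and at 46.5 CPM against 55.4 to 66.5 CPM in Fh1+/+ day 5 libraries. Psmb6 and Psmb7 were split as Psmb5 was in Fh1-/- day 5 and Fh1+/+ day 10 libraries, but not in Fh1+/+ day 5 libraries. The part of this split in the Psmb5 fold change and in the ratio of Psmb8 to Psmb5 was not tested. The share of all genes split in this way was not counted. With 1 or 2 libraries on the low side of a group, such a split arises easily. The Fh1-/- day 10 group did not follow for Psmb10, Psmb8 or Psmb9: replicates 1, 3 and 5 had low Y-linked reads, and replicate 5 was the lowest library of the group for all 3. Psme1 did follow there, at 60.0 to 142 CPM against 49.2 to 51.8 CPM. With the Y-linked level as a covariate, an alternative chosen after the data were seen, 0 members were called in any comparison, and the estimates at day 10 were 0.84 ± 0.55 for Psmb10, 0.37 ± 0.58 for Psmb8 and 0.00 ± 0.54 for Psmb9. At day 5 they were -0.51 ± 0.12, -0.41 ± 0.11 and -0.59 ± 0.17, with adjusted p = 0.153, 0.221 and 0.280 (edgeR).

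Psmc3ip, the symbol match that is no subunit, was at 2.6 ± 0.6 CPM per kb of exon in Fh1+/+ kidneys (SD), near Psmb9 and Psma3. It had 3.92, 4.61, 5.97, 3.87 and 2.97 CPM in Fh1-/- day 10 libraries, against 4.201, 3.47, 3.54, 4.65 and 5.36 CPM in Fh1+/+ day 10 libraries, a log2 fold change of -0.01 ± 0.22 (edgeR, adjusted p = 0.983). Replicates 1 and 3 were not both above the other libraries in this gene, nor in members such as Psmc3, Psmd3 and Psme4. Of the exonic length of Psmc3ip, 21.2% overlaps Mlx on the opposite strand.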

How the data were processed

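Counts of reads per gene symbol, as deposited, were used for 20 kidney libraries. According to the labels and the study's methods, the authors captured polyadenylated RNA in a stranded protocol, mapped reads to GRCm38 with STAR 2.6.0c, removed adapters and reads with a mapping quality below 20 with cutadapt, and counted the rest with Rsubread over GENCODE models, without normalisation or pooling. The deposited counts total 16654829 to 25001294 per library, and intervals for low counts cover counting error only. Symbols were matched to GENCODE M21 positions and RefSeq promoters on the same build.

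For each pair of groups, a quasi-likelihood model (edgeR 4.0.16, R 4.3.3, TMM, filterByExpr) used the libraries of those groups alone. The interaction of genotype and day used all 20. A gene was called at an adjusted p under 0.01 and an absolute log2 fold change over 0.58, the study's thresholds. The scripts were tested on simulated data. Alternatives were DESeq2 1.42.0, limma-voom (limma 3.58.1) with quality weights, RLE factors, library totals, no low-count filter or a stricter one, a looser call (adjusted p under 0.05, any fold), one fit of all libraries, a replicate block, leaving out each library, and leaving out Fh1-/- day 10 replicates 1 and 3. The Y-linked covariate and DESeq2 without those 2 libraries were chosen after seeing the data. Which 2 libraries to leave out, with either tool, was also taken from their values in these data.

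Members and lists were chosen with earlier results of these data known. Named were the immunoproteasome genes with their counterparts, Psme1 and Psme2, the 2 members of each subcomplex with the lowest p at each day, the extremes of log2 fold change, untested members, Psmc3ip, 7 partner genes and the lowest p of each context list. Psmd7, Psmd8, Psmd9, Psmd10, Psma3, Psma5, Psme3, Psme4 and Ptprc were added after their values were seen. Over 40 pairs of libraries of 1 group, chi-square per degree of freedom was at least 7.49, so no pair differed by counting error alone. The lowest value, 7.49, was that of Fh1-/- day 10 replicates 1 and 3, the libraries that stood apart. Either of them against the other libraries of that group gave 278 to 373. These values do not show whether libraries came from different animals, which was not tested. A gene that the naming rule covers is not reported here.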

Additional observations from a re-analysis of the deposited data

Results flagged for a closer look

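Among 50 members in 4 groups of 5 libraries (200 sets of values), 11 values lay far from the other 4 of their group by Dixon's criterion, which chance alone gives in about 1 in 20 groups. In Fh1+/+ day 5 replicate 1, Psmb8 was at 26.6 CPM (others 15.5 to 17.7) and Psmb9 at 12.1 CPM (others 5.90 to 7.26), while Psmd1 was at 109.9 CPM (others 144 to 150.2) and Psmd11 at 34.0 CPM (others 45.3 to 49.8). This is the single library of its group with Y-linked reads below 2 CPM, and the part of that in these values was not tested. In Fh1+/+ day 5 replicate 4, Psmb3 was at 31.4 CPM (others 23.8 to 25.5) and Psmd8 at 191 CPM (others 153 to 159). Psme2b was at 0.258 CPM in Fh1+/+ day 5 replicate 3 (others 0.546 to 0.596). Psmf1 was at 51.3 CPM in Fh1+/+ day 10 replicate 5 (others 41.6 to 44.2). Psme2 was at 16.4 CPM in Fh1-/- day 5 replicate 3 (others 21.5 to 22.6). Psmb11 was at 0.0418 CPM in Fh1-/- day 5 replicate 1 and at 0.0512 CPM in Fh1+/+ day 10 replicate 1, 1 read in each, with 0 reads in the other 4 libraries. The criterion finds 1 value that lies apart from the other 4, so it cannot find Fh1-/- day 10 replicates 1 and 3, which stood apart together. No member's genotype difference differed between the days past the threshold.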

How the results depend on the processing

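The count of members called was 0 in each of the 5 comparisons and under every alternative but 1, including each library left out in turn (0 to 0 called). DESeq2 without Fh1-/- day 10 replicates 1 and 3, chosen after seeing the data, called 2 members at day 10, Psmb8 and Psmb9, both lower. The direction at day 10 turned without those 2 libraries, with edgeR and DESeq2, for Psmb8 (-0.83 and -0.84), Psmb9 (-1.38 and -1.40), Psmb10 (-0.33 and -0.33), Psme2 (-0.34 and -0.35) and Tap1 (-0.58 and -0.59). limma-voom with quality weights, which gives libraries that stand apart less weight, turned Psmb8 (-0.54), Psmb9 (-1.14), Psmb10 (-0.013), Psme1 (-0.06), Psme2 (-0.21) and Tap1 (-0.23). The replicate block turned Psmb9 (-0.18). Of 1762 values of named genes, 153, the limma-voom values of Psmb8, Psme1, Psme2 and Tap1 and the blocked value of Psmb9 among them, changed sign at an unadjusted p of at least 0.05 in both settings. At day 10 the members higher at an unadjusted p under 0.05 numbered 1 with library totals alone, 14 in one fit of all libraries, and 1 to 13 with 1 library left out. For 18 medians over member lists, 15 values under other settings moved by more than 1 SD between libraries. Over all genes at day 10, edgeR called 8, DESeq2 796 and one fit of all libraries 838, with the study's thresholds throughout. Between the days in Fh1-/- kidneys the counts were 82, 1281 and 1294. edgeR called 5 genes and DESeq2 31 at day 5, and for the difference between the days 5 and 272.

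Correlations of same-numbered libraries of the 2 genotypes were between -0.27 and 0.10 at day 10 and between -0.51 and 0.33 at day 5. Those of differently numbered libraries were between -0.27 and 0.32 at day 10 and between -0.50 and 0.66 at day 5. These values do not show whether samples were paired. With the replicate block, 0 members were called in each comparison. With 5 libraries a group and a median standard error of 0.19 at day 10, log2 fold changes near 0.3, the members' median, could not be resolved.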
